A study of Mus musculus with 12 samples.

Results

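The 8 genes described here, Sox4, Sox5, Sox6, Sox8, Sox9, Sox11, Sox12 and Sox13, encode SOX transcription factors of the SOXC, SOXD and SOXE groups. They were selected by family from the 56980 genes of the count matrix, as the rows whose Ensembl identifiers map to these symbols. The selection was made after results of the same libraries were known, so the calls below describe these libraries and are no independent support for a pattern. All 8 were in the matrix, and 5 of them had the total of at least 10 counts that was needed for a test. Bulk RNA-Seq was performed on W-20 cells, a murine bone marrow stromal cell (BMSC) line, in 12 libraries. Unmodified (WT) cells and Y428F cells were each exposed for 2 hours to 50 nM parathyroid hormone (PTH) or to vehicle, with 3 libraries in each of the 4 groups. Y428F cells carry an introduced Flag-tagged YAP with the change Y428F, in which phenylalanine replaces a tyrosine that the kinase Src can phosphorylate, and positive clones were selected with puromycin. The titles of the libraries name Y428F alone, whereas the study's account of the RNA-Seq names the Y428F mutation in places and a line with S381A and Y428F together in others. No library of cells with introduced wild-type YAP or with S381A alone was analysed here, so the mutation and other differences between the lines cannot be told apart.

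SOX proteins share an HMG box, a DNA-binding domain that fits into the minor groove and bends the helix. SOX9, a SOXE factor, is required for cartilage formation, and the SOXD factors SOX5 and SOX6, which have no transactivation domain of their own, work with it on cartilage genes. The SOXC factors SOX4, SOX11 and SOX12 act in progenitor cells of many tissues, among them the skeleton and the nervous system. PTH signals through a receptor coupled to cAMP, whose nuclear effector CREB binds the cAMP response element (CRE), and YAP acts on genes through TEAD factors, which bind DNA. The receptor also activates phospholipase C, and the study reports that PTH stabilizes YAP through this branch, calcium and Src.

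The 300 bases around the annotated start sites of Sox4 and Sox9, the members with abundant RNA, are shown because these genes differed with PTH or between the lines. Both were read 5′ to 3′ on the strand of the gene from the GRCm39 genome, from 250 bases before to 50 bases after the start of the annotated transcript. The Sox4 window is chr13:29137647-29137946 (minus strand) and the Sox9 window is chr11:112672759-112673058 (plus strand). Capitals mark matches, on either strand, to the CRE (TGACGTCA), the shorter CRE core (TGACG, or CGTCA on the other strand, which the full CRE also contains) and the TEAD motif (GGAATG, or CATTCC on the other strand).
Sox4: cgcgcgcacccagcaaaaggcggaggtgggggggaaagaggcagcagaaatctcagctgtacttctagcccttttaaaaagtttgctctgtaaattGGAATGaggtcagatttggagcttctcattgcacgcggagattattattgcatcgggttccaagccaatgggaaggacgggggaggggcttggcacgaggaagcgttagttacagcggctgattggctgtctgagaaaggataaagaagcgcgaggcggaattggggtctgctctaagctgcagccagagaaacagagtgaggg
Sox9: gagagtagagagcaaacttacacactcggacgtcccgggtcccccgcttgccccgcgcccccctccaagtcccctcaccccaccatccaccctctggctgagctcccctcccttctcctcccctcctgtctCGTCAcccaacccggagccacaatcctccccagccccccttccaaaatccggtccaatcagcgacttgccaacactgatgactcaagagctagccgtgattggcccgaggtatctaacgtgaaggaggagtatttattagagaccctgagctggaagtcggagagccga

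The Sox4 window held 1 TEAD motif, starting at position -154 from the start site, and neither a CRE nor its core. The Sox9 window held 1 CRE core, at position -119, with neither a full CRE nor a TEAD motif. Of the windows of the other members, that of Sox6 held a TEAD motif at -105 and that of Sox12 a CRE core at -145. Among 21770 promoters of protein-coding genes read in the same way, 14.0% held the TEAD motif, 22.6% the CRE core and 2.44% the full CRE. Among the 13789 promoters of genes that were tested, the shares were 13.4%, 28.3% and 3.07%. The motifs are matches of letters in a window, and binding was not measured.

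Library totals ranged from 17127897 to 19057319 counts. Expression is given in CPM, in which counts are divided by library totals that were adjusted with the TMM factors of edgeR, as mean ± SD over 3 libraries. Of the 9 stromal markers examined, 8 were at 1 CPM or more in every group and Thy1 was at 0. Summed stromal marker expression was 20500 to 24400 CPM in WT vehicle libraries and 14000 to 15100 CPM in Y428F vehicle libraries. With PTH it was 20400 to 23500 CPM in WT and 10400 to 13200 CPM in Y428F libraries. Most of each sum was Col1a1 and Col1a2. The 4 chondrocyte markers summed to at most 0.398 CPM in any library, with Acan and Matn1 at 0, and the 4 neural crest or Schwann markers summed to at most 0.884 CPM, with Foxd3 at 0 in all 12 libraries. Endothelial markers (2 genes) summed to 0.569 to 1.07 CPM in WT vehicle libraries and to 7.34 to 9.06 CPM in Y428F vehicle libraries, nearly all of it Cdh5. Adipocyte markers (3 genes, with Adipoq at 0) summed to 23.4 to 33.9 CPM and 6.08 to 7.48 CPM in these groups, nearly all of it Fabp4. Epithelial markers (2 genes, with Epcam at 0, so that the sum is Krt8 alone) came to 0.322 to 0.796 and 2.29 to 3.67 CPM. Ptprc, a leukocyte gene, averaged 0.853 CPM in WT vehicle and 2.79 CPM in Y428F vehicle cells. Their part in the differences between the lines was not tested. In bulk RNA, fewer cells with a transcript and less of it per cell cannot be told apart.

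Sox4 RNA was by far the most abundant of the members per length of transcript. Per kilobase of exon, Sox4 was at 94.3 ± 6.83 CPM in WT vehicle cells, Sox9 at 13.2 ± 1.90, Sox13 at 0.144 ± 0.0365, Sox5 at 0.0364 ± 0.0117 and Sox6 at 0.0172 ± 0.0185. The levels of Sox5 and Sox6 overlapped within their spread in these libraries. Sox4 made up 87.6% ± 0.83 (SD, n = 3) of the summed level per kilobase of the 8 members in WT vehicle cells and 95.5% ± 0.187 in Y428F vehicle cells, and Sox9 12.2% ± 0.86 and 4.40% ± 0.155. The ratio of Sox4 to Sox9 per kilobase was 6.64 to 7.79 in WT vehicle libraries, 8.75 to 9.71 in WT PTH libraries, 21.2 to 22.7 in Y428F vehicle libraries and 14.9 to 17.3 in Y428F PTH libraries, with no overlap between the 4 groups.

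Sox4 (ENSMUSG00000076431.5), a SOXC gene, has 1 exon from 29132902 to 29137696 on the minus strand of chromosome 13. In WT cells it had 414, 470 and 472 CPM in the vehicle libraries and 540, 571 and 559 CPM in the PTH libraries. In Y428F cells it had 464, 458 and 461 CPM with vehicle and 378, 406 and 400 CPM with PTH. The WT PTH libraries were thus the highest of the 12 and the Y428F PTH libraries the lowest, whereas the vehicle libraries of both lines lay between them. Means were 452 ± 32.7 and 557 ± 15.5 CPM in WT cells and 461 ± 2.82 and 395 ± 14.6 CPM in Y428F cells.

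**Figure D1:**
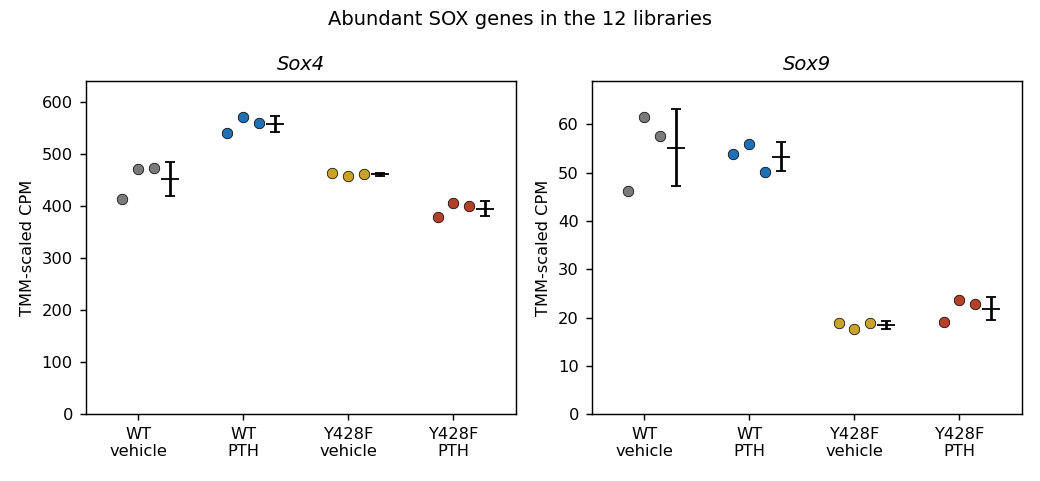
Sox4 (left) and Sox9 (right) in TMM-scaled CPM on linear axes that start at 0, with 1 point per library in the 4 groups and the mean ± SD of 3 libraries beside them. Sox4 averages 557 CPM in WT PTH cells and 395 CPM in Y428F PTH cells, and all Sox9 values of Y428F cells (17.6 to 23.7 CPM) lie under those of WT cells (46.3 to 61.6 CPM).

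PTH increased Sox4 in WT cells 1.24-fold, a log2 fold change of 0.31 (SE 0.0668, adjusted p = 0.00909; adjusted p-values are from the quasi-likelihood test of edgeR, with Benjamini-Hochberg correction across the 15583 genes of this fit). In Y428F cells PTH decreased it, with a log2 fold change of -0.22 (SE 0.0575, adjusted p = 0.0128, across 17691 genes). The responses differed between the lines by -0.52 on the log2 scale (95% confidence interval -0.69 to -0.35, adjusted p = 0.00356). In Y428F cells the summed stromal markers were also lower with PTH than with vehicle, at 10400 to 13200 against 14000 to 15100 CPM. Col1a1 and Col1a2 made up most of these sums. Both had lower means with PTH, as had Col3a1, Pdgfra, Pdgfrb and Eng. Cxcl12 (358 CPM with vehicle and 372 with PTH) and Runx2 (73.2 and 78.1 CPM) did not. In WT cells, means with vehicle and PTH were 95.2 and 62.8 CPM for Pdgfra and 618 and 513 CPM for Pdgfrb. For Col1a1 they were 7050 and 6830 CPM, for Col3a1 836 and 835 CPM and for Eng 501 and 518 CPM. Col1a2 averaged 12800 CPM in both WT groups. The part of these markers in the fall of Sox4 was not tested. The call in Y428F cells was lost without Y428F vehicle replicate 1 (adjusted p = 0.0521) or Y428F PTH replicate 1 (0.0543), while the difference in response was called with each of the 12 libraries left out in turn, at adjusted p from 0.0023 to 0.0167.

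Among the 1144 genes called with PTH in both lines, Sox4 alone was called in opposite directions. Of the other ways to fit all 12 libraries, it was 1 of 2 such genes with at least 10 counts required in every library. It was also 1 of 2 with the replicate numbers fitted as a block and 1 of 12 with no filter on low counts. These counts were made after the values of Sox4 were seen. In the fits without 1 library, 0 to 3 genes were called in opposite directions, and Sox4 was not among them when Y428F vehicle replicate 1 or Y428F PTH replicate 1 was left out.

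**Figure D2:**
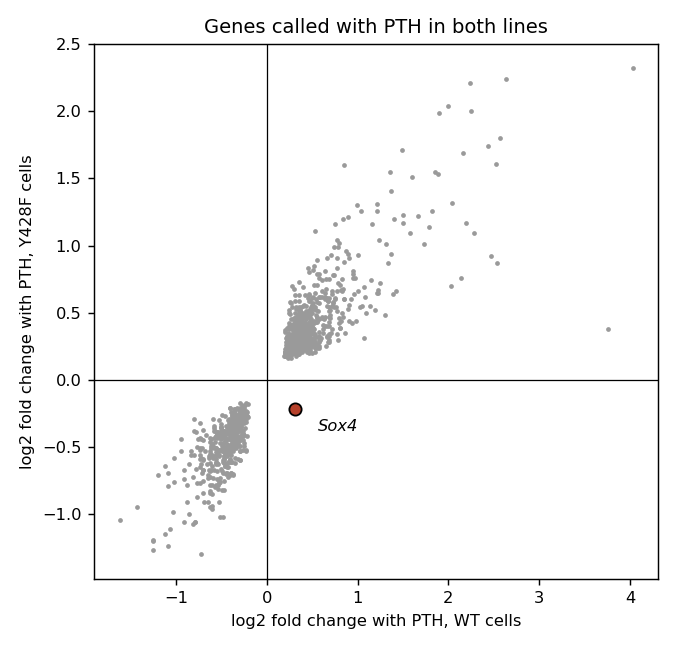
Each point is 1 of the 1144 genes called with PTH in both lines, with its log2 fold change in WT cells on the horizontal axis and in Y428F cells on the vertical axis. Sox4 (red), at 0.31 and -0.22, is the only point in a quadrant of opposite signs.

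Of the 5 members tested, Sox4 was the only one called for PTH in WT cells, where 6.88% of all genes tested were called higher and 4.91% lower. It was likewise the only one called for PTH in Y428F cells, against 6.61% of all genes called higher and 5.78% lower. With library totals in place of TMM, Sox4 was called in the same direction in each line, whereas the calls over all genes shifted from 1072 higher and 765 lower to 744 and 1216 in WT cells, and from 1170 and 1022 to 888 and 1445 in Y428F cells. For the difference in response, Sox4 was the 1 member called, and it was called as lower. Over all genes, 0.17% were called as higher and 0.243% as lower in this test.

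The basal level of Sox4 was not called as different between the lines. With vehicle the log2 fold change of Y428F against WT cells was 0.03 (95% confidence interval -0.09 to 0.15, adjusted p = 0.732). Under PTH, Sox4 in Y428F cells was 1.41-fold below its level in WT cells, a log2 fold change of -0.50 (SE 0.0575, adjusted p = 3.88e-07). These comparisons share their libraries with the responses to PTH above.

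Sox11 and Sox12, the other SOXC members and single-exon genes like Sox4, had 4 counts each, all in WT PTH replicate 1, and 0 counts in the other 11 libraries. The SOXB genes Sox1, with 1 count, and Sox2, with 4 counts, also had reads in that library alone. Neither Sox11 nor Sox12 could be compared at this depth. A count of 0 allows up to 3 counts, which is 0.152 to 0.185 CPM over the 12 libraries. This floor and the intervals of counts below cover counting error only.

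Sox9 (ENSMUSG00000000567.6), the cartilage regulator of the SOXE group, has 3 exons from 112673009 to 112678586 on the plus strand of chromosome 11. In WT cells it had 46.3, 61.6 and 57.6 CPM with vehicle and 53.8, 56.0 and 50.1 CPM with PTH. In Y428F cells it had 19.0, 17.6 and 18.9 CPM with vehicle and 19.1, 23.7 and 22.9 CPM with PTH. Every Y428F library was below every WT library, and within a line the vehicle and PTH libraries overlapped in WT cells but not in Y428F cells.

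Expression of Sox9 in Y428F cells was 2.98-fold below that in WT cells under vehicle (log2 fold change -1.58, SE 0.10, adjusted p = 5.64e-11) and 2.43-fold below it under PTH (-1.28, SE 0.0993, adjusted p = 1.13e-09). Both calls held in every alternative fit. On chromosome 11, 862 genes averaged 4 CPM or more. Their median log2 fold change between the lines was 0.18 under vehicle, and 32.5% of them were lower in Y428F cells. Under PTH the same median was -0.12 for chromosome 6, which holds Sox5, with 63.5% of genes lower. It was 0.08 for chromosome 1 of Sox13 (41.3% lower) and 0.09 for chromosome 13 of Sox4 (40.5% lower). The part of such shifts in the levels of the members was not tested. The response of Sox9 to PTH was not called in WT cells (log2 fold change -0.04, 95% confidence interval -0.25 to 0.17, adjusted p = 0.85) or in Y428F cells (0.24, 0.02 to 0.46, adjusted p = 0.154). The difference between these responses, 0.29 on the log2 scale, was not called either (95% confidence interval -0.00 to 0.59, adjusted p = 0.711). Sox8, the other SOXE member, had 1 count in all, in WT vehicle replicate 3.

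The 3 SOXD genes were expressed near the limit of detection, with 80 counts for Sox5, 102 for Sox6 and 92 for Sox13 over the 12 libraries. Each has 14 or 15 exons in its canonical transcript. Sox5 (chromosome 6, 143774151 to 144727703) had 11, 13 and 7 counts in WT vehicle libraries, 11, 4 and 5 in WT PTH libraries, 6, 10 and 7 in Y428F vehicle libraries and 2 in each Y428F PTH library. The Y428F PTH libraries had the lowest counts of the 12. Summed over its 3 libraries that group had 6 counts (exact Poisson 95% interval 2.2 to 13.06), against 20 (12.22 to 30.89) in the WT PTH group.

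Between the lines, Sox5 was called lower in Y428F cells under PTH, with a log2 fold change of -1.77 (SE 0.662, adjusted p = 0.034). The call was lost with DESeq2 (adjusted p = 0.0666), with no filter on low counts (0.0726), without WT PTH replicate 1 (0.20) and without each of the Y428F PTH libraries (0.0698 to 0.074). Its other comparisons were not called, among them PTH in Y428F cells with a log2 fold change of -1.81 (SE 0.652, adjusted p = 0.0793) and in WT cells with -0.50 (SE 0.569, adjusted p = 0.67), and the lines with vehicle with -0.47 (SE 0.517, adjusted p = 0.505).

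Sox13 (chromosome 1, 133310039 to 133352222) had 18, 10 and 14 counts in WT vehicle libraries and 15, 12 and 8 in WT PTH libraries. In Y428F cells it had 6, 0 and 4 counts with vehicle and 2, 1 and 2 with PTH. Every Y428F library was below every WT library. It was lower in Y428F cells by a log2 fold change of -2.04 with vehicle (SE 0.641, adjusted p = 0.0127) and -2.82 with PTH (SE 0.731, adjusted p = 0.00321). The call with vehicle was lost without Y428F vehicle replicate 2, which had 0 counts (log2 fold change -1.45, adjusted p = 0.0512), and without Y428F vehicle replicate 1 the value was -2.77. The call with PTH held with each library left out in turn, at log2 fold changes between -3.04 and -2.59. PTH had no called effect on Sox13 in WT cells (log2 fold change -0.12, adjusted p = 0.913) or in Y428F cells (-0.90, adjusted p = 0.601, with values from -1.5 to -0.18 when single libraries were left out).

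Sox6 (chromosome 7, 115070106 to 115638860) had 2, 11 and 2 counts in WT vehicle libraries, 11, 8 and 7 in WT PTH libraries, 11, 4 and 4 in Y428F vehicle libraries and 18, 12 and 12 in Y428F PTH libraries. The Y428F PTH libraries were the highest of the 12. No comparison of Sox6 was called. For PTH against vehicle its log2 fold change was 1.18 in Y428F cells (95% confidence interval -0.06 to 2.42, adjusted p = 0.232) and 0.90 in WT cells (-0.63 to 2.42, adjusted p = 0.493). Without single libraries the value in WT cells lay between 0.52 and 2.21. Between the lines it was 0.30 with vehicle (SE 0.673, adjusted p = 0.761) and 0.59 with PTH (SE 0.572, adjusted p = 0.437). An exon of Sox6 overlaps one of 1110004F10Rik, a gene on the other strand with 16304 counts in all, and the strand setting of the counting is not stated. Reads of these genes in the shared stretch therefore cannot be told apart. The genes in the matrix that overlap exons of Sox4, Sox5, Sox9 and Sox13 had at most 15 counts in all.

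**Figure D3:**
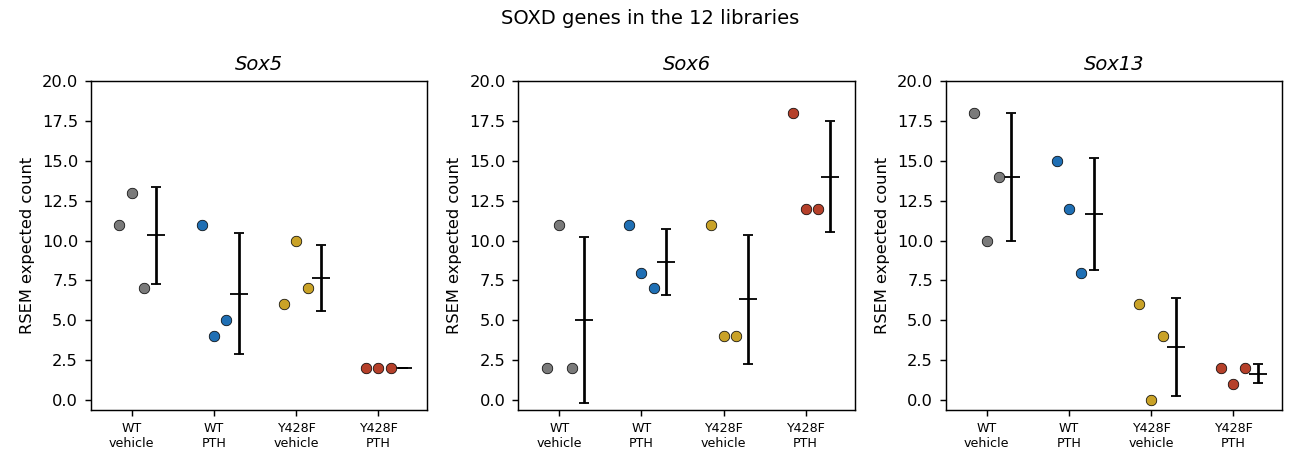
RSEM expected counts of Sox5, Sox6 and Sox13, with 1 point per library in the 4 groups and the mean ± SD of 3 libraries beside them, on a linear axis up to 20 counts. Sox13 has at most 6 counts in a Y428F library and at least 8 in a WT library, and Sox5 has 2 counts in each Y428F PTH library.

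Between the lines, the members that were called were lower in Y428F cells. Sox6 was not called, at log2 fold changes of 0.30 with vehicle and 0.59 with PTH. Nor were Sox4 (0.03) and Sox5 (-0.47) called with vehicle. With vehicle, 2 of the 5 members tested, Sox9 and Sox13, were lower and 0 higher, where 22.7% of all genes were called lower and 22.4% higher. With PTH, 4 of 5 (Sox4, Sox5, Sox9 and Sox13) were lower and 0 higher, beside 23.0% and 22.8% of all genes, and the call of Sox5 was lost in the fits named above. By group, the called members were Sox4 of the SOXC genes, Sox5 and Sox13 of the SOXD genes and Sox9 of the SOXE genes.

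**Figure D4:**
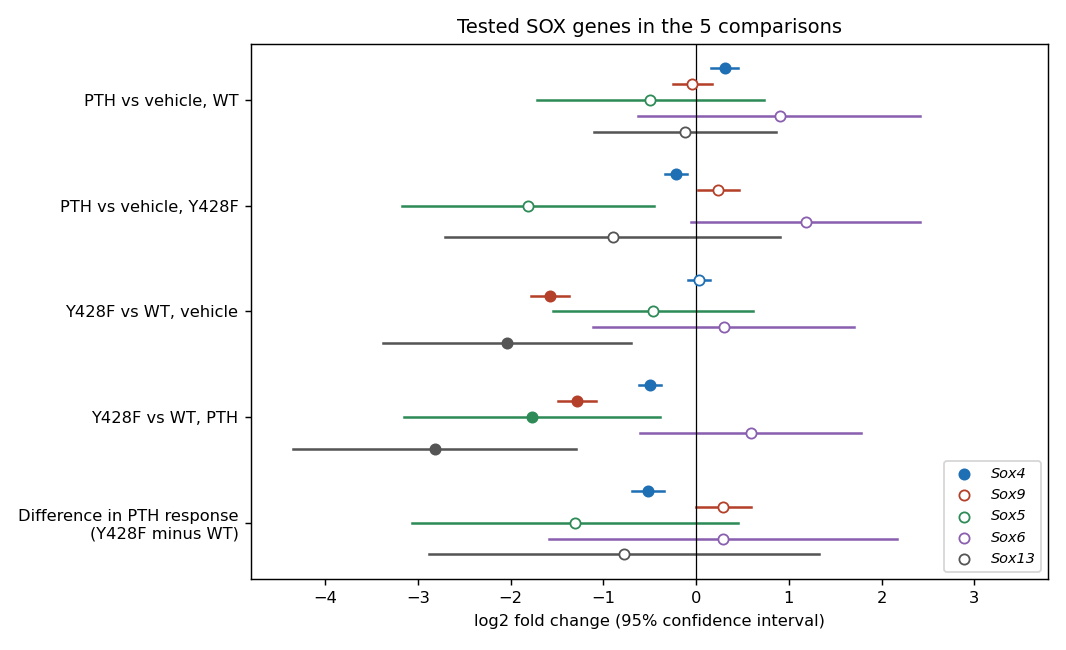
log2 fold changes of the 5 members tested, with 95% confidence intervals from edgeR's quasi-likelihood test as lines, in the 5 comparisons. Filled points passed an adjusted p of 0.05 over all genes; Sox4 lies right of 0 with PTH in WT cells (0.31) and left of 0 with PTH in Y428F cells (-0.22), and the intervals of Sox5, Sox6 and Sox13 are wide.

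Of the 12 other mouse SOX genes in the matrix, 6 (Sox3, Sox7, Sox14, Sox17, Sox21 and Sry) had 0 counts in all libraries. None of the rest reached 0.5 CPM in a group. Sox30 had 21 counts in 6 libraries and no call. The other 5 had 1 to 8 counts in 1 to 5 libraries each, and of 10 RNAs named for a SOX gene, such as antisense transcripts, none exceeded 2 counts in all.

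Genes on which SOX9, SOX5 and SOX6 are known to act in cartilage were mostly at low levels, and 11 of the 19 listed could be tested in the fit of 12 libraries. With vehicle, 3 were higher and 2 lower in Y428F cells, and with PTH 1 was higher and 3 lower, where over all genes 22.4% were higher and 22.7% lower with vehicle and 22.8% and 23.0% with PTH. Col11a1, which encodes a chain of type XI collagen, was higher in Y428F cells, at 67.1 ± 3.22 CPM against 2.73 ± 0.561 CPM with vehicle (log2 fold change 4.62, SE 0.114, adjusted p = 3.06e-17). Col27a1, a fibrillar collagen gene of cartilage, was lower, at 0.395 ± 0.20 against 5.30 ± 0.0564 CPM (-3.74, SE 0.277, adjusted p = 6.26e-10), and so was Col11a2 for another type XI chain, at 1.71 ± 0.487 against 6.54 ± 0.39 CPM (-1.93, SE 0.209, adjusted p = 1.63e-07). Fgfr3, a receptor that restrains growth of cartilage, was higher with vehicle (1.07, SE 0.327, adjusted p = 0.0111), a call lost without WT vehicle replicate 2 (adjusted p = 0.0676) or Y428F vehicle replicate 1 (0.0536). The directions were thus mixed, with a median log2 fold change of 1.07 with vehicle, 0.0 when genes at 0 in a group were set at the bound that 3 counts allow, and -0.87 with PTH, beside 0.012 and 0.019 over all genes. None of this list was called for PTH, of 8 tested in WT and 11 in Y428F cells.

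Of 19 partners and regulators of SOX9 and the SOXD factors, 17 were tested. With PTH, Arid5b, a coactivator of SOX9, rose in both lines, from 90.3 ± 1.65 to 140.0 ± 14.6 CPM in WT cells (log2 fold change 0.64, SE 0.0727, adjusted p = 8.6e-05) and from 76.9 ± 2.98 to 107.0 ± 13.3 CPM in Y428F cells (0.47, SE 0.0804, adjusted p = 0.000433). Trps1, a GATA-type repressor of the growth plate, fell in both, by 0.59 and 0.29 on the log2 scale (adjusted p = 0.000599 and 0.0239). In Y428F cells Zfp219 (-0.39, adjusted p = 0.0115) and the Mediator subunit gene Med12 (-0.23, adjusted p = 0.0461) were also lower with PTH. These 2 calls and that of Trps1 in Y428F cells were each lost without single libraries. Without Y428F vehicle replicate 1 the adjusted p was 0.0931 for Zfp219, 0.147 for Med12 and 0.128 for Trps1, and without Y428F PTH replicate 3 it was 0.0696, 0.0641 and 0.0917. Med12 and Trps1 were also not called without Y428F PTH replicate 1 (0.183 and 0.102) or Y428F vehicle replicate 3 (0.0942 and 0.0609), and Med12 not without Y428F vehicle replicate 2, WT vehicle replicate 3 or WT PTH replicate 1 (0.0557 to 0.0826). Calls thus came to 1 higher and 1 lower of 17 in WT cells and 1 higher and 3 lower in Y428F cells. Over all genes, 6.88% were called higher and 4.91% lower in WT cells, and 6.61% and 5.78% in Y428F cells. Medians of the list were -0.00 and -0.05, beside -0.015 and -0.007 over all genes.

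Between the lines, 3 of these 17 genes were higher and 8 lower in Y428F cells with vehicle, and 5 higher and 8 lower with PTH, with medians of -0.18 and -0.15 beside 0.012 and 0.019 over all genes. The shares over all genes were 22.4% higher and 22.7% lower with vehicle, and 22.8% and 23.0% with PTH. Kpnb1, which encodes importin beta, was higher, at 663 ± 7.15 against 350 ± 13.5 CPM with vehicle (0.92, SE 0.0663, adjusted p = 3.86e-10). Gli2, a Hedgehog effector, was lower, at 0.255 ± 0.275 against 2.01 ± 1.01 CPM with vehicle (-2.97, SE 0.617, adjusted p = 0.000584), and had 0 counts in all Y428F PTH libraries, at least 9.51-fold lower than in WT PTH cells against a floor of 3 counts per library. Pias1, a SUMO ligase that modifies SOX9 (-0.44, adjusted p = 2.24e-05), and Runx1 (-0.38, adjusted p = 0.0112, lost without WT vehicle replicate 3 at 0.0804 or Y428F vehicle replicate 1 at 0.0629) were lower with vehicle, and Trps1 was higher with PTH (0.47, adjusted p = 0.000138).

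Of the 8 genes tied to SOXC factors, 4 were tested in the fit of 12 libraries and 2 in that of WT cells, and the 1 called in each comparison of PTH or of the lines was Ezh2, a histone methyltransferase gene that SOX4 is known to activate. It had 64.6 ± 3.87 CPM in WT vehicle, 51.8 ± 2.81 in WT PTH, 94.6 ± 0.103 in Y428F vehicle and 79.3 ± 1.98 in Y428F PTH cells. PTH lowered Ezh2 in both lines, by 0.31 on the log2 scale in WT cells (adjusted p = 0.016, but 0.0909 without WT PTH replicate 1) and by 0.26 in Y428F cells (adjusted p = 0.00537), whereas Sox4 rose in the former and fell in the latter. Whether SOX4 acts on Ezh2 in these cells was not tested. The list's median log2 fold change was -0.20 and -0.01 for PTH in WT and Y428F cells, and 0.18 and 0.71 between the lines with vehicle and PTH. Over all genes the medians were -0.015, -0.007, 0.012 and 0.019 in these comparisons. The shares of all genes called lower with PTH were 4.91% in WT and 5.78% in Y428F cells. Between the lines, 22.4% of all genes were called higher with vehicle and 22.8% with PTH. Of the 9 neural crest and glial targets of SOXE factors, 7 were tested in the fit of 12 libraries. With vehicle and with PTH, 2 of these were higher in Y428F cells and 1 was lower, against 22.4% and 22.7% of all genes with vehicle and 22.8% and 23.0% with PTH. Erbb3, a receptor of Schwann cells, was among the higher ones, at 17.9 ± 1.65 against 4.30 ± 0.72 CPM with vehicle (2.05, SE 0.159, adjusted p = 1.24e-09). The median of this list was 0.08 with vehicle and -0.19 with PTH between the lines, and none of it was called for PTH, with medians of -0.19 over 5 genes in WT cells and -0.39 over 7 in Y428F cells. No gene of these 4 lists was called for a difference in response to PTH between the lines.

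The members with the largest gap between group means on the log2 CPM scale were Sox13 (2.08) and Sox5 (1.57), the latter close to Sox9 (1.56) and Sox6 (1.42), and the gap of Sox4 was 0.50. Over the 12 libraries, the genes most like Sox13 by Pearson's r of log2 CPM were Parp11 (0.967), Srd5a3 (0.948) and Zfp444 (0.947), and those most like Sox5 were Zfp599 (0.965), Sema4a (0.94) and Gm47469 (0.915). Of 11218 genes compared, 134 had an r over 0.9 with Sox13 and 7 with Sox5. These members have few counts per library and the libraries share their lines and treatments, so r is a description. For Sox4, added after its values were seen, Mtmr1 (0.916), Usp28 (0.907) and Eef2k (0.905) came closest, and 4 of 11217 genes compared had an r over 0.9. Mtmr1, a phosphoinositide phosphatase gene, averaged 27.8 and 32.9 CPM in WT vehicle and PTH cells and 27.2 and 25.5 CPM in Y428F vehicle and PTH cells.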

How the data were processed

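Bulk RNA-Seq of W-20 cells comprised 12 libraries in 4 groups of 3. The authors mapped reads with STAR 2.7.10b to GRCm39 with the GENCODE vM31 basic annotation and deposited RSEM expected counts per gene, not scaled for library size or length. Titles of the libraries gave the groups, although for Y428F libraries a genotype field of the labels says WT. The labels do not say whether replicates came from separate cultures, although the study's statistics speak in general of independent experiments. P-values measure the spread between these libraries, which may be technical.

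Expected counts were rounded and fitted with edgeR 4.0.16 in R 4.3.3 (TMM, genes totalling 10 or more counts, quasi-likelihood test, Benjamini-Hochberg adjustment over all genes tested). PTH in WT cells was fitted on the 6 WT libraries and the other comparisons on all 12. A gene was called at an adjusted p under 0.05. The members and gene lists were chosen with earlier results of these data known. Named genes of a list were up to 4 called genes with the largest log2 fold change and at least 2 CPM in a group. Positions, lengths and promoters came from GRCm39 with GENCODE vM39, which matched 56236 of 56980 identifiers. Levels per kilobase used the union of exons. A haematopoietic marker list is not reported here. Alternatives included DESeq2 1.42.0, and scripts were tested on simulated data.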

Additional observations from a re-analysis of the deposited data

Results flagged for a closer look

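The response of Sox4 to PTH differed between the lines, with an interaction of -0.52 on the log2 scale (SE 0.0812, adjusted p = 0.00356 by edgeR's quasi-likelihood test). All 3 WT PTH libraries were above the 3 WT vehicle libraries, and all 3 Y428F PTH libraries were below the 3 Y428F vehicle libraries. The groups have 3 libraries each, so single libraries were not examined for outlying values.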

How the results depend on the processing

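At an adjusted p under 0.01, the number of members called fell from 1 to 0 for PTH in Y428F cells, from 2 to 1 between the lines with vehicle and from 4 to 3 with PTH. With at least 10 counts required in every library, which left Sox4 and Sox9 as the members tested, it was 1 between the lines with vehicle and 2 with PTH, in place of 2 and 4. Without 1 library at a time it was 0 to 1 for PTH in Y428F cells, 1 to 2 between the lines with vehicle and 3 to 4 with PTH. Log2 fold changes that were not called changed sign in these fits, from -0.32 to 0.1 for Sox13 and -0.14 to 0.05 for Sox9 with PTH in WT cells, from -0.03 to 0.06 for Sox4 and -0.38 to 1.6 for Sox6 between the lines with vehicle, and from -1.03 to 0.96 for Sox6 in the difference in response. No called member changed sign in any alternative. The replicate numbers did not pair the samples, since the deviations of same-numbered libraries correlated at -0.146 to 0.242 over 18 pairs, 4 of them over 0.1. With the replicate block, 1 member was called for PTH in each line, 2 between the lines with vehicle, 3 with PTH (Sox5 at adjusted p = 0.0525) and 1 for the difference in response, and Sox4 was 1 of 2 genes called with PTH in opposite directions. Over all genes, the calls for the difference in response, 30 higher and 43 lower, came to 52 and 72 with DESeq2 and to 96 and 120 with no filter, and the 765 lower calls for PTH in WT cells to 1216 with library totals alone. Without 1 library at a time the calls for the difference in response were 6 to 37 higher and 18 to 57 lower, with the fewest in all, 24, without Y428F PTH replicate 3. They also fell by over 1.5 times, in 1 or both directions, without Y428F PTH replicate 1, any Y428F vehicle library, WT PTH replicate 1 or 2, or WT vehicle replicate 3. Calls for PTH were then 613 to 1305 higher and 292 to 906 lower in WT cells, both fewest without WT PTH replicate 1, with like falls without WT PTH replicate 2 (665 and 395), WT vehicle replicate 3 (705 and 340) and, for lower calls, WT vehicle replicate 2 (385). In Y428F cells they were 616 to 1186 lower, at 616 and 676 without Y428F vehicle replicates 1 and 2 and 651 without Y428F PTH replicate 1. With Spearman's rho, 0 of the 3 genes most like Sox13, 2 of those most like Sox5 and 0 of those most like Sox4 were the same genes. By the longest transcript in place of the union of exons, Sox5 was at 0.0706 CPM per kilobase in WT vehicle cells and Sox13 at 0.193. Sox8, Sox11 and Sox12, with 1 to 4 counts in all, could not be compared at this depth.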
